A study of Homo sapiens with 4 samples.

Results

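Transcripts of 50 regulators of the cell division cycle were compared between PC-3-BM and PC-3 human prostate cancer cells. The genes are a module of cyclins, cyclin-dependent kinases (CDKs), CDK inhibitors, E2F transcription factors and their closest partners, chosen by name. Each gene was read from its brightest probe set, by the mean of all arrays, among those that the platform annotation gives a single gene symbol. Of the 50 genes, 48 had such a probe set, out of 18417 genes with one and 33297 probe sets on the array. CDKN2C and CDK8 had none.

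PC-3-BM is a derivative, called a clone in the methods, that the study recovered from bone metastases of athymic male nude mice after repeated intracardiac injection of PC-3 cells, and it is labelled as having high metastatic potential. PC-3, the parental line, came from a prostate cancer that had spread to bone, and its labelled metastatic potential is poor. Both carried firefly luciferase and green fluorescent protein, and the labels name no drug for either. Each line was measured on 2 Affymetrix whole-transcript arrays. Whether the arrays of a line stand for separate cultures is not stated, and p-values therefore cover the spread among arrays alone, possibly a technical one. For both lines the labels speak of growth in mice and the methods of culture, so it is not settled in which state cells were lysed.

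The cell cycle is driven by CDKs that act only when bound to a cyclin. In G1, cyclin D with CDK4 or CDK6, and then cyclin E with CDK2, phosphorylate the pocket proteins RB1, RBL1 and RBL2, which until then hold the E2F factors in check, and released E2F factors switch on the genes of DNA replication. Cyclin A and cyclin B with CDK1 carry the cell through G2 into mitosis, CDC25 phosphatases remove and WEE1 adds the phosphates that block CDKs, and the INK4 and CIP/KIP proteins inhibit the kinases directly. In bulk RNA from cycling cells, fewer cells in a phase and less RNA per cell cannot be told apart, and the share of cells in each phase was not measured.

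PC-3-BM cells had less mRNA of several drivers of G1 and of entry into S phase. Of the genes that act at entry into mitosis, CDK1, CCNB2, CDC25B and CDC25C were lower too, while the mitotic cyclins CCNB1 and CCNF were not called. PC-3-BM cells had more of the CDK inhibitor CDKN1B and of the pocket proteins RB1 and RBL2, while the other measured CDK inhibitors were not called. Some members went the other way, with the G1 kinase CDK6 higher and the repressors E2F5, E2F6 and E2F8 lower. The largest falls were those of CCNE2 (3.68-fold), the phosphatase CDC25A (2.82-fold), CCND1 (1.86-fold) and E2F5 (1.83-fold). The largest rises were those of the CDK inhibitor CDKN1B (2.21-fold), RB1 (1.81-fold) and its relative RBL2 (1.50-fold). A gene was called at a limma adjusted p below 0.05, with Benjamini-Hochberg adjustment over all 33297 probe sets, and rose or fell is written only of called genes. Of the 48 measured members, 26 were called, 7 higher and 19 lower in PC-3-BM, which is 54.2% called and 39.6% lower. Over all probe sets, 23.2% were called, 11.6% higher and 11.6% lower. Over all genes at their brightest probe set, which is the like comparison, 29.6% were called, 14.8% higher and 14.8% lower. The members' median difference, PC-3-BM minus PC-3 on the log2 scale, was −0.17, beside −0.04 over all genes, and 31 of the 48 lay below 0.

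The arrays of the lines did not overlap for 42 of the 48 members, beside 70.6% of all genes. Most differences were small. Only 3 called members differed more than 2-fold (CCNE2, CDC25A and CDKN1B), 6 differed by 1.5-fold to 2-fold and 17 by less than 1.5-fold. The number of calls depended on each array. It was 10 without the first PC-3-BM array, 15 without the second, 7 without the first PC-3 array and 6 without the second. CCNE2, CDC25A, CCND1, E2F5, CDKN1B and RB1 were called in every one of these fits and under every alternative at this threshold, and none of the 26 called members changed sign under any of them. Of the 22 members not called, 19 had a 95% interval of the difference within 0.5 log2 units of 0.

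**Figure D1:**
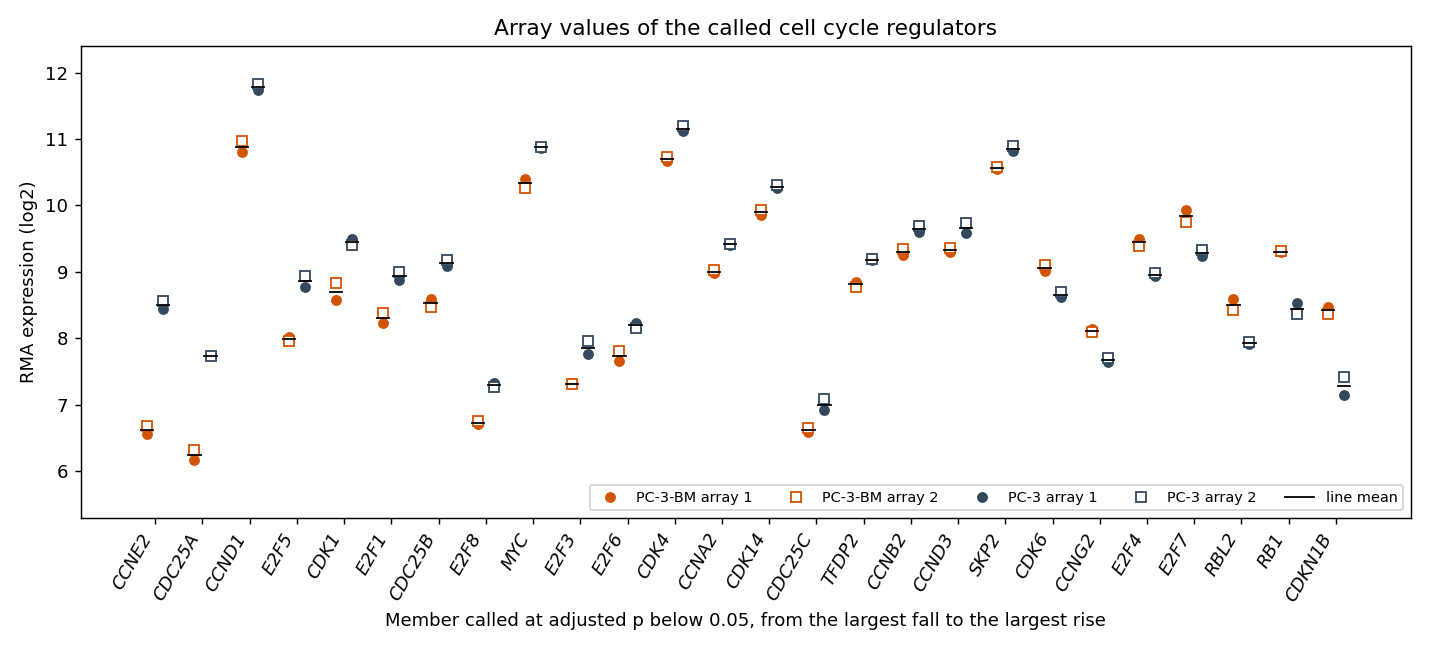
Log2 expression (robust multichip average, vertical axis) on each of the 4 arrays for the 26 called members, ordered from the largest fall to the largest rise, with PC-3-BM to the left of PC-3 for each gene and a bar at each line's mean. The arrays of the lines are separate for each gene, with the widest gaps for CCNE2 and CDC25A, which were lower in PC-3-BM, and CDKN1B, which was higher.

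Over all probe sets, which are no replicates of each other, Pearson's r was 0.996 for the PC-3-BM arrays and 0.997 for the PC-3 arrays, against 0.983 to 0.985 for arrays of different lines. The epithelial markers KRT8, KRT18, KRT19 and EPCAM, fixed with vimentin (VIM) as markers of PC-3, were measured and all 4 were lower in PC-3-BM. VIM was not called, at 11.96 and 11.95 in PC-3-BM and 11.88 and 11.87 in PC-3. The summed level of the 5 markers was 13.10 to 13.11 in PC-3-BM and 13.44 to 13.50 in PC-3 on the log2 scale. The luminal markers KLK3 and KLK2, which PC-3 cells are known to lack, stood between 5.64 and 6.07 on the 4 arrays and were not called. Of 7 blood cell markers, 1 was called: CD68 was higher in PC-3-BM by 0.72. The summed level of the blood list was 11.43 to 11.53 in PC-3-BM and 10.83 in PC-3. Levels were summed before the log2, so this sum is mainly CD68, at 11.43 and 11.32 in PC-3-BM and 10.66 in PC-3. The median difference of the blood list was −0.03, and 5 of its 7 genes lay below 0. PTPRC, which marks blood cells as a class, stood at 3.93 and 4.05 in PC-3-BM and 3.81 and 3.70 in PC-3, under the lower quartile of all probe sets, 5.03. Of 4 measured stromal markers LUM was higher, at 4.15 and 4.04 in PC-3-BM and 3.50 and 3.63 in PC-3, with the list's summed level at 7.47 to 7.49 in PC-3-BM and 7.48 to 7.49 in PC-3. Of 4 endothelial markers PECAM1 was higher by 0.45, with the list's summed level at 10.81 to 10.91 in PC-3-BM and 10.93 to 11.06 in PC-3. That sum is mainly KDR, which was not called, at 10.76 and 10.65 in PC-3-BM and 10.94 and 10.80 in PC-3. The part of these marker differences in the results below was not tested.

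Promoters are shown because E2F factors are themselves members and bind the promoters of many cell cycle genes. The RefSeq promoter table used here holds a window at the gene's outermost start for 34 of the 50 members. Windows at other starts were not used. Among the called members, CCND1, CCND3, CCNE2, CDK14, E2F5, E2F8, MYC and RB1 are not in the motif counts. Each window runs from 250 bases before to 50 bases after the gene's outermost start in the RefSeq annotation of GRCh38.p14. The E2F letters searched, on both strands, were TTCCCGC, or TTGGCGC, or TTCGCGC, or TTGCCGC. The cell cycle homology region (CHR), an element of many genes expressed in G2 and mitosis, was searched on both strands as TTTGAA, or TTCGAA. E2F matches can overlap on opposite strands, and in the windows printed here no E2F match shares a base with a CHR match. E2F letters were found in 12.9% of the 24885 windows of all genes and CHR letters in 16.9%. Among the members, 12 of 34 windows held E2F letters (35.3%), with 7 of the 12 windows of lowered genes (58.3%), 1 of the 6 of raised genes (16.7%) and 4 of the 14 of genes not called (28.6%). The 7 lowered genes were CDC25A, CDC25B, CDC25C, CDK1, E2F1, E2F3 and E2F6. A match is a description of letters and not a binding site.

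Windows of 5 lowered genes are given first, then those of 2 raised genes. Capitals mark E2F or CHR letters on either strand. CDC25A lies on the minus strand at chr3:48188368-48188667, CDK1 on the plus strand at chr10:60778081-60778380, E2F1 on the minus strand at chr20:33686336-33686635, E2F3 on the plus strand at chr6:20401629-20401928 and CCNB2 on the plus strand at chr15:59104896-59105195. The raised genes are E2F7, on the minus strand at chr12:77065520-77065819, and CDKN1B, on the plus strand at chr12:12717118-12717417. Each is written 5′ to 3′ along its gene.
CDC25A: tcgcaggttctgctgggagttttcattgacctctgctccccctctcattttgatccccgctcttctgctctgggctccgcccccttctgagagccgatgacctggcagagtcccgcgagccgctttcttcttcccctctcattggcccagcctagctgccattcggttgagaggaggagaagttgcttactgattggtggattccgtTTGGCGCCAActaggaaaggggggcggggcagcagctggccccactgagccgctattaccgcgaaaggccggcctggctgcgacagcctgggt
CDK1: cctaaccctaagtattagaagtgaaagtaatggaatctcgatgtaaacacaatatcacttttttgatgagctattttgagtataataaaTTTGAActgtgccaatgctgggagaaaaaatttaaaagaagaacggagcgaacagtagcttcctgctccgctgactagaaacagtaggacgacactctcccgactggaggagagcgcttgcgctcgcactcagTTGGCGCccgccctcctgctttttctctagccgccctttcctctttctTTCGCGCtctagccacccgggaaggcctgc
E2F1: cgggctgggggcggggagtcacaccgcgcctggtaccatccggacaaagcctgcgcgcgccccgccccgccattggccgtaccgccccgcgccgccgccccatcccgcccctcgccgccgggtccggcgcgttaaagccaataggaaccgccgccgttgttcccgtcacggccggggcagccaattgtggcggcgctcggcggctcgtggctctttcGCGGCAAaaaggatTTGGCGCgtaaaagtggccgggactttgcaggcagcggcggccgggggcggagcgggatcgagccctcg
E2F3: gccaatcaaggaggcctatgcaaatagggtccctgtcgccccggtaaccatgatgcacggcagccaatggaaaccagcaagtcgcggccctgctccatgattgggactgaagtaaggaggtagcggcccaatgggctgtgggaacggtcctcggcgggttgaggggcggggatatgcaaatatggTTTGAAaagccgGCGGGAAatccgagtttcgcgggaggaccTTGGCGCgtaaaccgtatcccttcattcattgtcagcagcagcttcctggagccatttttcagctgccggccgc
CCNB2: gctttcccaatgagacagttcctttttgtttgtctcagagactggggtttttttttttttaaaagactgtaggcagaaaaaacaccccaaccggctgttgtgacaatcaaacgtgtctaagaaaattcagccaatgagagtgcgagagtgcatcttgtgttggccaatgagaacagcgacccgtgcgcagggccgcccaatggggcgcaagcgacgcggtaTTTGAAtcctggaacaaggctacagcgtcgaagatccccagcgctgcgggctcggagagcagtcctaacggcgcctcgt
E2F7: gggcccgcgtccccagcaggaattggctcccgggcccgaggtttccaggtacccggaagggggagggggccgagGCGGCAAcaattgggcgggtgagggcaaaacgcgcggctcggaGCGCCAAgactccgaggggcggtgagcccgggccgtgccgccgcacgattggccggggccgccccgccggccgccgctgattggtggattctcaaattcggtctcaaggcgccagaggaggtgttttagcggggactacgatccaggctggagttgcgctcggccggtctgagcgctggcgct
CDKN1B: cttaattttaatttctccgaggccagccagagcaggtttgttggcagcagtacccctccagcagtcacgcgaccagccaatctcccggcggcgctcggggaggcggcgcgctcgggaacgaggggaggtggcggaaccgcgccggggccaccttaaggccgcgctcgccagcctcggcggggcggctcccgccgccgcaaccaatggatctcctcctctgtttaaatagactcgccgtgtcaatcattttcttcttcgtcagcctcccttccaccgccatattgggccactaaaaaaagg

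In the CDC25A window the matches, at −43 and −40 from the start, overlap on opposite strands and form 1 run of capitals. CDK1 held E2F letters at −28 and 21 and CHR letters at −161. E2F1 held E2F letters at −33 and −19, and E2F3 at −53 and −24 with CHR letters at −65. The CCNB2 window held no E2F letters and CHR letters at −29, while E2F7 held E2F letters farther from its start, at −176 and −133. The CDKN1B window held neither.

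Among the D-type cyclins and their kinases, which act in G1, 3 of 5 fell and 1 rose, beside 14.8% lower and 14.8% higher over all genes. CCND1, the main D-type cyclin of many epithelial tumours, had 10.80 and 10.97 log2 units on the PC-3-BM arrays, against 11.73 and 11.83 on the PC-3 arrays. Its PC-3-BM values were both lower, by 0.89 on average (SE 0.09, limma adjusted p = 0.00504). CDK4, its kinase, read 10.66 and 10.73 in PC-3-BM and 11.12 and 11.19 in PC-3, a difference of −0.45 (SE 0.07, limma adjusted p = 0.015). CDK6, the other kinase of the pair, went the opposite way. It read 9.01 and 9.11 in PC-3-BM and 8.62 and 8.69 in PC-3, a difference of 0.40 (SE 0.08, limma adjusted p = 0.0244). CDK4 mRNA was thus lower and CDK6 mRNA higher in PC-3-BM. The arrays of the lines were apart for both kinases, as they were for 70.6% of all genes. CCND3 read 9.29 and 9.35 in PC-3-BM and 9.58 and 9.74 in PC-3 (−0.34, SE 0.09, limma adjusted p = 0.0492), and this call was lost when the arrays were centred on their medians. CCND2 stood at 5.12 and 5.40 in PC-3-BM and 5.33 and 5.46 in PC-3, with overlapping arrays and a 95% interval of the difference from −0.44 to 0.17. These values lie below those of KLK3 and KLK2.

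The E- and A-type cyclins and CDK2 act at the start of S phase and through it. CCNE2, which encodes cyclin E2, showed the largest change of all members. It read 6.56 and 6.67 in PC-3-BM, against 8.43 and 8.56 in PC-3, which gave a difference of −1.88 (SE 0.09, limma adjusted p = 0.00134). The gap between the lines was many times wider than the gap within either. Its paralogue CCNE1 was not called, with 6.83 and 6.81 in PC-3-BM and 6.93 and 6.95 in PC-3, and its interval of −0.30 to 0.05 lies outside that of CCNE2. CCNA2, the cyclin A of dividing somatic cells, fell by 0.41 (SE 0.07, limma adjusted p = 0.016), with 8.98 and 9.03 in PC-3-BM and 9.41 and 9.42 in PC-3. CDK2, the kinase that both cyclins use, read 8.81 and 8.84 in PC-3-BM and 9.03 and 9.18 in PC-3. Its arrays did not overlap, but the difference of −0.28 was not called (limma adjusted p = 0.0731). For CCNA1, known mainly from the male germ line, the difference was −0.01 (95% interval −0.21 to 0.19), and its sign turned when the arrays were centred or normalised again. Its values, too, lie below those of KLK3 and KLK2.

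Among the mitotic cyclins and CDK1, 2 of 4 fell, beside 14.8% lower over all genes. CDK1, the kinase that drives entry into mitosis, read 8.57 and 8.84 in PC-3-BM, against 9.50 and 9.40 in PC-3. The difference was −0.75 (SE 0.11, limma adjusted p = 0.0126), the largest of this role. The PC-3-BM arrays stood farther apart from each other than the PC-3 arrays did, and both were lower. CCNB2, a B-type cyclin, fell by 0.35 (SE 0.08, limma adjusted p = 0.0352), at 9.25 and 9.34 in PC-3-BM and 9.60 and 9.68 in PC-3, and lost its call with centred arrays. CCNB1, which encodes the major partner of CDK1 in mitosis, read 8.49 and 8.73 in PC-3-BM and 8.68 and 8.78 in PC-3, and CCNF, which encodes the substrate-binding part of a ubiquitin ligase, 6.92 and 7.17 in PC-3-BM and 7.18 and 7.15 in PC-3. The arrays of both genes overlapped, with 95% intervals of −0.40 to 0.15 for CCNB1 and −0.39 to 0.15 for CCNF.

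The pairs that activate other CDKs or act in transcription were not called. CCNH, the cyclin of the CDK-activating kinase, read 9.76 and 9.81 in PC-3-BM and 9.69 and 9.71 in PC-3, and its kinase CDK7 differed by 0.11 (95% interval −0.09 to 0.31). CDK7 has 2 probe sets, which hold identical values. CCNC, the cyclin of the Mediator kinase module, read 9.86 and 9.80 in PC-3-BM and 9.60 and 9.59 in PC-3, a difference of 0.23 (limma adjusted p = 0.0747). Among the other cyclins and CDKs, CCNG2, an atypical cyclin linked to withdrawal from the cycle, rose to 8.13 and 8.10 in PC-3-BM, against 7.64 and 7.71 in PC-3 (0.44, SE 0.07, limma adjusted p = 0.0147). Its relative CCNG1 had 11.13 and 11.04 in PC-3-BM and 10.90 and 10.93 in PC-3, and the difference of 0.17 was not called (95% interval −0.02 to 0.36). CDK14, a kinase of the membrane-bound cyclin Y, fell by 0.39 (SE 0.07, limma adjusted p = 0.0226), with 9.85 and 9.94 in PC-3-BM and 10.26 and 10.30 in PC-3. CDK5, best known from neurons, differed by −0.21 without a call (limma adjusted p = 0.111).

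**Figure D2:**
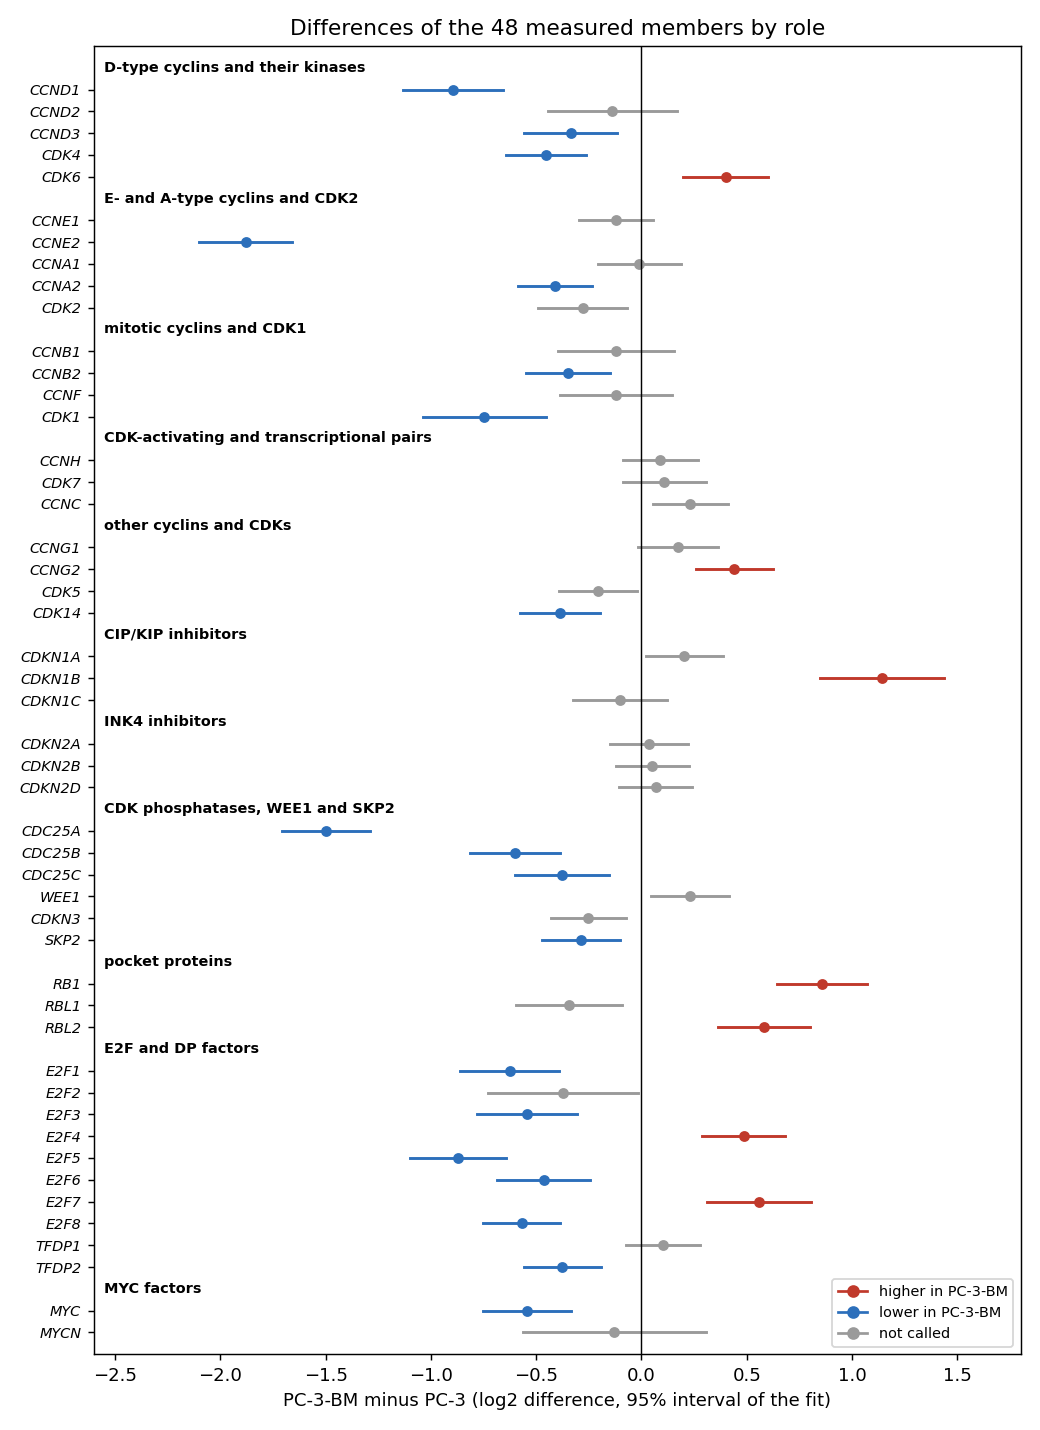
Difference between the lines (PC-3-BM minus PC-3, log2, horizontal axis) for the 48 measured members, grouped by role, with the 95% interval of the limma fit as a line. Falls (blue) lie mainly among cyclins, CDC25 phosphatases and E2F factors, and rises (red) include CDKN1B, RB1 and RBL2, while the INK4 inhibitors lie close to 0.

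Of the CIP/KIP inhibitors, which bind cyclin and CDK together, 1 of 3 rose, beside 14.8% higher over all genes. CDKN1B, which encodes p27, read 8.47 and 8.36 in PC-3-BM, against 7.14 and 7.41 in PC-3. It was higher by 1.14 (SE 0.11, limma adjusted p = 0.0048), the largest rise of all members, and its lowest PC-3-BM value stood well above its highest PC-3 value. CDKN1A, which encodes p21, read 8.06 and 8.05 in PC-3-BM and 7.81 and 7.89 in PC-3. The arrays of the lines were apart. The CDKN1A difference of 0.20 was not called (limma adjusted p = 0.11, 95% interval 0.02 to 0.39), and CDKN1C, which encodes p57, differed by −0.10 (95% interval −0.33 to 0.12).

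The INK4 inhibitors, which bind CDK4 and CDK6 alone, were not called. CDKN2B, which encodes p15, read 9.77 and 9.73 in PC-3-BM and 9.69 and 9.70 in PC-3. The differences were 0.05 for CDKN2B (95% interval −0.12 to 0.23), 0.04 for CDKN2A (−0.15 to 0.22) and 0.07 for CDKN2D (−0.10 to 0.24), so that a change above 0.24 log2 units lay outside the interval of each. CDKN2A yields p16 and, from another reading frame, ARF, which 1 summary value per probe set does not separate.

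The phosphatases and other proteins that set CDK activity held the second-largest fall. CDC25A, which activates CDK2 at the start of S phase, read 6.17 and 6.31 in PC-3-BM, against 7.74 on both PC-3 arrays. It fell by 1.50 (SE 0.08, limma adjusted p = 0.00163). CDC25B and CDC25C, which activate CDK1 at the entry to mitosis, fell less. CDC25B read 8.59 and 8.47 in PC-3-BM and 9.08 and 9.17 in PC-3 (−0.60, SE 0.08, limma adjusted p = 0.00995), and CDC25C 6.59 and 6.65 in PC-3-BM and 6.92 and 7.08 in PC-3 (−0.38, SE 0.09, limma adjusted p = 0.0372). All 3 phosphatases had separate arrays, and the CDC25C call was lost when the arrays were centred or normalised again. WEE1, the kinase that opposes them, read 7.90 and 7.99 in PC-3-BM and 7.72 and 7.71 in PC-3. Its difference of 0.23 was not called (limma adjusted p = 0.0852), although another of its 3 probe sets was, at 0.35 (limma adjusted p = 0.0445), and the third differed by 0.23 without a call. SKP2, which marks p27 for degradation, read 10.55 and 10.58 in PC-3-BM and 10.81 and 10.89 in PC-3 (−0.29, SE 0.07, limma adjusted p = 0.0471), a call that was lost with centred arrays. CDKN3, a phosphatase that acts on CDK2, differed by −0.25 without a call (limma adjusted p = 0.0592).

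Pocket proteins bind E2F factors and repress their targets, and 2 of the 3 rose, beside 14.8% higher over all genes. RB1, the retinoblastoma protein gene, read 9.29 and 9.31 in PC-3-BM, against 8.52 and 8.37 in PC-3, and was higher by 0.86 (SE 0.08, limma adjusted p = 0.00457). RBL2, which encodes p130, the pocket protein of resting cells, read 8.59 and 8.43 in PC-3-BM and 7.91 and 7.94 in PC-3 (0.58, SE 0.08, limma adjusted p = 0.0113). Both PC-3-BM arrays exceeded both PC-3 arrays for each gene. RBL1, which encodes p107 and is itself an E2F target, lay on the other side of 0, with 7.97 and 8.19 in PC-3-BM and 8.42 on both PC-3 arrays, and its difference of −0.34 was not called (limma adjusted p = 0.0672, 95% interval −0.60 to −0.09).

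Of the 10 E2F and DP factors, 6 fell and 2 rose, beside 14.8% lower and 14.8% higher over all genes. The arrays of the lines did not overlap for any of the 10, beside 70.6% of all genes. E2F1 and E2F3, activators of S phase genes, fell. E2F1 had 8.23 and 8.38 in PC-3-BM, against 8.87 and 8.99 in PC-3 (−0.63, SE 0.09, limma adjusted p = 0.0114). E2F3 had 7.32 and 7.31 in PC-3-BM, against 7.76 and 7.96 in PC-3 (−0.54, SE 0.09, limma adjusted p = 0.0168). For both the arrays were apart. The third activator, E2F2, had 5.73 and 6.09 in PC-3-BM and 6.23 and 6.33 in PC-3, and the difference of −0.37 was not called (limma adjusted p = 0.126, 95% interval −0.73 to −0.01).

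E2F4 and E2F5 both bind pocket proteins and act mainly as repressors, yet they differed in direction. E2F4 rose to 9.50 and 9.39 in PC-3-BM, against 8.94 and 8.98 in PC-3 (0.48, SE 0.08, limma adjusted p = 0.0138). E2F5 fell to 8.02 and 7.95 in PC-3-BM, against 8.78 and 8.94 in PC-3 (−0.87, SE 0.09, limma adjusted p = 0.00489). The atypical repressors E2F7 and E2F8, which bind DNA without a DP partner, also went opposite ways. E2F7 read 9.93 and 9.75 in PC-3-BM and 9.23 and 9.33 in PC-3 (0.56, SE 0.09, limma adjusted p = 0.017), and E2F8 read 6.70 and 6.75 in PC-3-BM and 7.33 and 7.27 in PC-3 (−0.57, SE 0.07, limma adjusted p = 0.00781). E2F6, a repressor that works without pocket proteins, fell by 0.46 (SE 0.09, limma adjusted p = 0.0212), at 7.65 and 7.80 in PC-3-BM and 8.23 and 8.16 in PC-3. Of the DNA-binding partners, TFDP2 fell by 0.37 (SE 0.07, limma adjusted p = 0.0221), with 8.84 and 8.78 in PC-3-BM and 9.18 and 9.19 in PC-3. TFDP1 read 10.50 and 10.46 in PC-3-BM and 10.37 and 10.38 in PC-3, a difference of 0.10 (95% interval −0.07 to 0.28).

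MYC, a transcription factor that promotes growth and entry into the cycle, fell by 0.54 (SE 0.08, limma adjusted p = 0.0121), with 10.40 and 10.26 in PC-3-BM, against 10.87 and 10.88 in PC-3. The arrays of the lines were apart. Its relative MYCN, known from neuroblastoma, read 5.98 and 6.13 in PC-3-BM and 5.96 and 6.41 in PC-3, with overlapping arrays and the widest interval of the members, −0.56 to 0.30.

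By phase, the members were set beside lists of genes known to be expressed at G1/S or in G2 and mitosis (G2/M), which hold none of them, and the difference between the lists was not tested. On the G1/S list, 27 of 39 measured genes fell and 1 rose, which is 71.8% called, with a median difference of −0.70. The largest falls were those of DSCC1, which acts in sister chromatid cohesion (−1.65), the helicase subunit MCM4 (−1.23), the exonuclease EXO1 (−1.22) and the sliding clamp PCNA (−1.15). The gene that rose was CASP8AP2 (0.39). Without 1 array the number of G1/S genes that fell was 16 to 23, and CASP8AP2 was not called. On the G2/M list, 7 of 50 fell and 3 rose, which is 20% called, beside 29.6% of all genes, with a median of −0.10. Without 1 array, 0 to 2 G2/M genes fell and 1 rose. SMC4 (−0.65) and JPT1 (−0.75) fell there, while GAS2L3 (0.76) and NCAPD2 (0.43) rose. The E2F letters defined above stood in 24 of the 30 G1/S windows used (80%) and in 9 of the 38 G2/M windows (23.7%). The CHR letters stood in 3 of the 30 G1/S windows (10%) and 30 of the 38 G2/M windows (78.9%).

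Further genes of the machinery were counted in the same way, beside 29.6% called over all genes. The share called was 40% for the other cyclins and 22.2% for the other CDKs and CDK partners. It was 18.2% for the genes of CDK phosphorylation and cyclin proteolysis. Of 15 other cyclins, 4 rose and 2 fell, among them CCNL1 (0.79), CCNL2 (0.70) and CCNYL1 (0.52), which were higher, and the CDK-binding CABLES1 (−1.26), which was lower. Of 27 other CDKs and CDK partners, 4 rose and 2 fell, with CDK19, a Mediator kinase (0.69), CDK5RAP3 (0.56), CDKL2 (0.48) and CDKN2AIP (−0.55) at the ends. CDKL2 read 5.31 and 5.49 in PC-3-BM and 4.93 and 4.90 in PC-3, below the values of KLK3 and KLK2. Of 33 genes of CDK phosphorylation and cyclin proteolysis, 4 rose and 2 fell. The ubiquitin ligase subunit BTRC (1.01) and CDC16, part of the anaphase-promoting complex (0.96), were higher, and ANAPC13 (−0.47) and PKMYT1, a relative of WEE1 (−0.39), were lower. The DREAM and MMB complexes combine a shared core with pocket proteins and E2F4, or with MYBL2, and repress or activate cell cycle genes. Of their 11 genes, 3 fell and 1 rose, which is 36.4% called. MYBL2 read 8.29 and 8.54 in PC-3-BM and 9.61 and 9.82 in PC-3 (−1.30, SE 0.12, limma adjusted p = 0.00445). LIN9 (−1.10) and FOXM1 (−0.40) also fell, and LIN37 rose (0.54).

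In the MYC and MAX network, 2 of 12 rose and 1 fell, which is 25% called, beside 29.6% of all genes. MXD1, which competes with MYC for its partner MAX, read 9.71 and 9.49 in PC-3-BM, against 7.88 and 7.89 in PC-3 (1.72, SE 0.10, limma adjusted p = 0.0018), the largest difference of any gene on these lists. MXI1, of the same family, was higher by 0.49. MYCL was lower (−0.35), at 5.06 and 5.02 in PC-3-BM and 5.38 and 5.39 in PC-3. These MYCL values lie below those of KLK3 and KLK2. Over all the lists together, 1 not reported here included, 74 of 204 genes were called (36.3%), beside 29.6% of all genes.

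**Figure D3:**
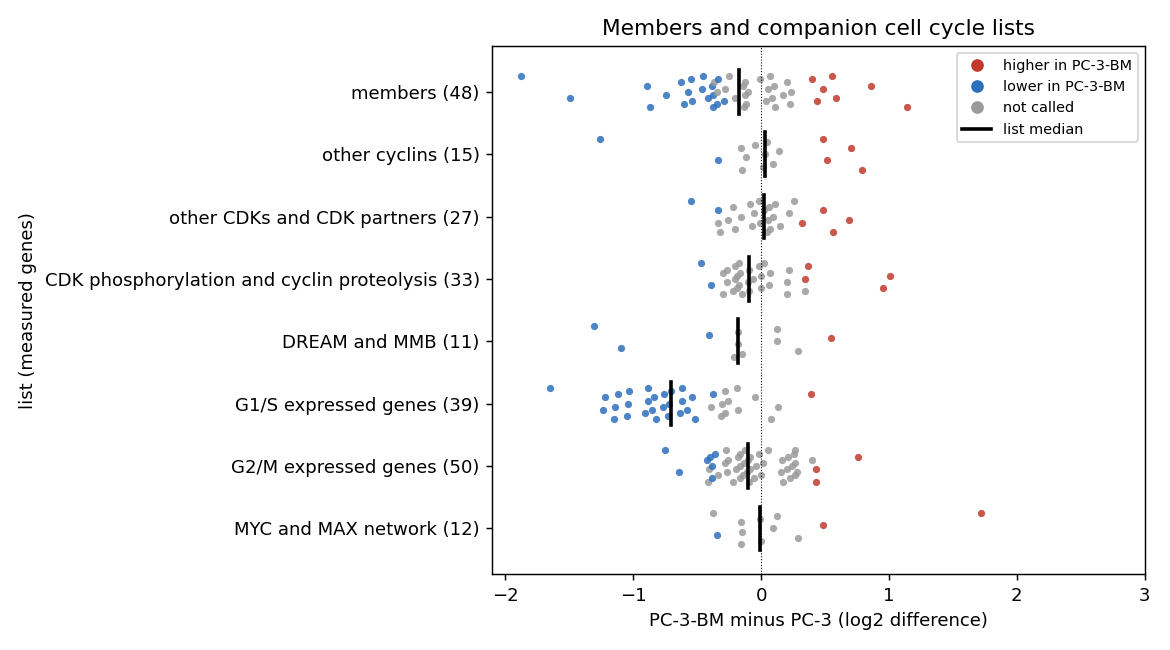
Difference between the lines (PC-3-BM minus PC-3, log2, horizontal axis) for each measured gene of the 48 members and of 7 other cell cycle lists, 1 point per gene, coloured by call, with a bar at the list median. The G1/S list stands to the left of the others, with a median of −0.70, and the G2/M list is centred near 0, with a median of −0.10.

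Several called members lie among genes that differ in the same direction. For each member the median difference of its nearest measured genes, up to 10 on each side in RefSeq order, was set beside its own. Over 18389 placed genes this median ran from −0.24 at the 5th percentile to 0.23 at the 95th. Around CDC25A it was −0.48, with 12 neighbours lower and 1 higher, and around CDK1 it was −0.24, with 9 lower and 1 higher. Around E2F4 it was 0.38, with 12 neighbours higher and 0 lower. RB1 (0.22), CDKN1B (0.21) and E2F7 (0.20) had raised neighbours too, with 8, 8 and 5 of them called higher. CCNE2, by contrast, had a neighbour median of −0.09, with 5 lower and 5 higher. RBL2 had one near 0, with 5 neighbours higher and 0 lower. SKP2 fell among neighbours with a median of 0.23, and TFDP1, at 0.10 itself, stood among neighbours with a median of 0.60. CCNB2 and CDK14 also fell, with 5 and 6 neighbours higher and 1 lower around each. In all 2 of the lowered members lay below the 5th percentile and 1 of the raised above the 95th. DNA copy number was not measured, and the part of neighbouring genes in these differences was not tested.

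**Figure D4:**
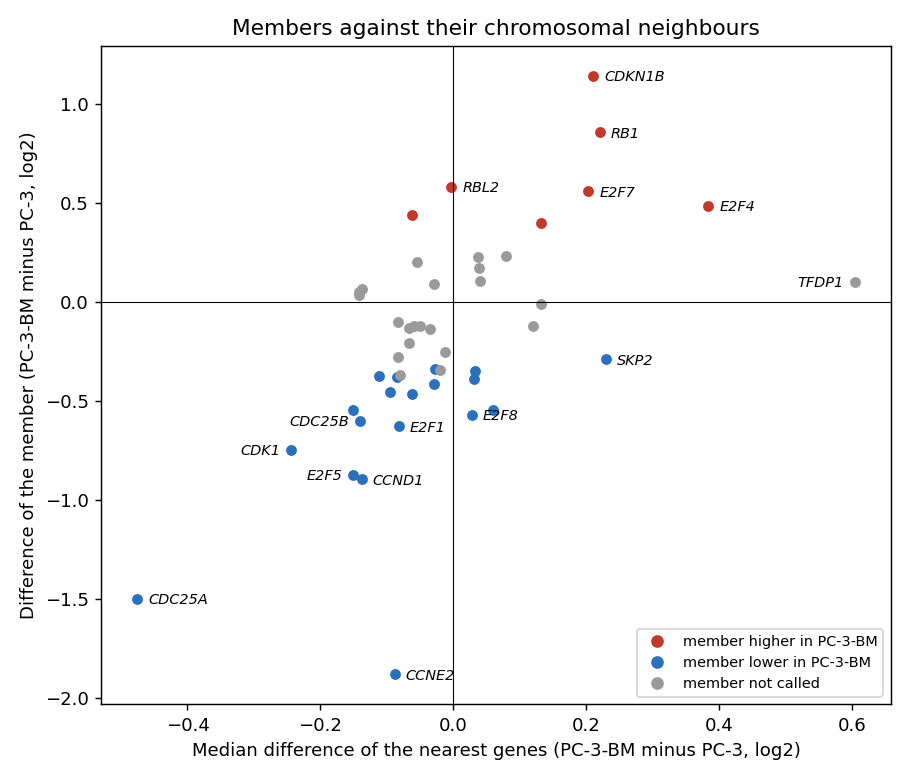
Difference of each measured member (vertical axis) against the median difference of its nearest genes on the chromosome (horizontal axis), both PC-3-BM minus PC-3 in log2 units. CDC25A and E2F4 lie among neighbours that moved the same way, while CCNE2 lies far below its neighbours.

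The members' chromosomes differed as well. All 3 members on chromosome 8 fell (CCNE2, E2F5 and MYC), where 23% of 639 measured genes were lower and 11% higher. On chromosome 13, which carries RB1, TFDP1 and CCNA1, 36.6% of measured genes were higher and 3.79% lower, and on chromosome 3, which carries CDC25A and TFDP2, 29.3% were lower and 8.51% higher. The part of these shares in the members' differences was not tested.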

How the data were processed

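Total RNA of PC-3-BM and PC-3 cells was labelled with biotin and hybridised to single-colour Affymetrix arrays, 2 per line. The deposited log2 values are the authors' robust multichip average (RMA): background was corrected, array distributions were equalised and probes were summarised. Limma 3.24 and R 3.2 appear in the submitters' processing notes. The genome build is not given in the sources used here. Because RMA equalises the arrays, a shift of all transcripts would not show, and no detection call is given. For arrays, their number limits the precision.

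The values were used as they stood. PC-3-BM minus PC-3 was fitted in limma 3.58.1 under R 4.3.3 with group means, empirical Bayes moderation (2.88 prior beside 2 residual degrees of freedom) and Benjamini-Hochberg adjustment over 33297 probe sets, and calls were made at an adjusted p below 0.05. An exact two-sided permutation test over 2 against 2 arrays cannot go below 0.333. The script was tested on simulated data. Probe sets were named from the platform annotation: 19460 had 1 symbol, 1754 several and 12083 none, and 19429 of the first matched the RefSeq gene table of GRCh38.p14 by gene identifier, which served for names and gene order. Promoter windows came from RefSeq on the same assembly, and motif matches were counted without a test.

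The members and lists were chosen with earlier results of these data known. Every measured member is named, with all array values for those called and for the brightest of a role without calls, and up to 4 called genes per other list, by size of difference, are named. The G1/S and G2/M lists are those commonly used for cell cycle scoring, without the members. Alternatives covered scaling, dim probe sets, annotation, moderation, the probe set per gene, the replicate number, thresholds and leaving out each array. Some listed genes and 1 list are not reported here.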

Additional observations from a re-analysis of the deposited data

How the results depend on the processing

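With 2 arrays per line, a fit without 1 array leaves a lone array that is assumed to vary like the other line. In such fits 2238 to 3854 probe sets were called, against 7717 with all arrays, with 6 to 15 members, 2 to 5 of them higher and 4 to 10 lower, and 28 to 42 of the other listed genes. At the thresholds of the study (adjusted p below 0.001, difference above 2 either way) limma called 17 probe sets. Among these were 0 members (0 higher and 0 lower) and 0 other listed genes. The paper reports a longer list of genes at such thresholds, which this fit did not reproduce, and the reason was not examined. In the main fit 34 members had an unadjusted limma p below 0.05. Deviations of same-numbered arrays had a correlation of −0.02 over all probe sets. With 2 arrays per line this cannot show whether the replicate numbers pair the arrays. With the replicate number as a replicate block 23 members were called instead of 26, without CCND3, CCNB2 and SKP2. Centred arrays left 22 members, a second quantile normalisation 25, and the mean of all probe sets of a gene 26. More were called in fits of fewer probe sets, 30 above a mean of 5 and 32 with 1 symbol, and 31 with trended robust moderation. No called member reversed. Among members not called, CCNA1 turned to 0.0256 with centred arrays and 0.0121 with quantile normalisation. Without 1 array the difference ranged from −0.0697 to 0.051 for CCNA1, −0.359 to 0.0989 for MYCN, −0.242 to 0.0012 for CCNF and −0.0087 to 0.079 for CDKN2A. RMA values carry no background estimate, and the dimmest member means were 5.26 in PC-3-BM and 5.40 in PC-3, above the lower quartile of 5.03. That quartile does not mark expression, because KLK3 and KLK2, which PC-3 cells are known to lack, read 5.64 to 6.07. CCND2 and CCNA1 read below both genes on every array, and the values of E2F2 and MYCN overlapped theirs. CDC25A in PC-3-BM, at 6.17 and 6.31, stood just above. Whether such dim values understate a difference was not tested.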

Other observations

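CDK8, the kinase partner of cyclin C, was annotated only on a probe set shared with ADRA1B, so its value belongs to no single gene. That probe set read 8.22 and 8.37 in PC-3-BM and 8.02 and 8.11 in PC-3, a difference of 0.23 (limma adjusted p = 0.135). The expression of CDKN2C was not analysed here.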
